A study of Mus musculus with 8 samples.

Results

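The data described here are RNA polymerase II (Pol II) contacts at 10 genes of fatty acid synthesis in mouse liver: Fasn, Acaca, Acacb, Acly, Scd1, Elovl6, Elovl5, Me1, Srebf1 and Mlxipl. The genes were chosen by name, and all 10 were found among the 21887 protein-coding genes of the RefSeq gene table. They were measured by ChIA-PET, in which chromatin bound by an antibody to Pol II (clone 8WG16) is ligated within its complexes and sequenced as paired-end tags (PETs), so that each PET gives the positions of 2 DNA ends that were joined. Livers came from wild-type C57BL/6 mice aged 3 to 6 months, entrained to 12 hours of light and 12 hours of dark with free access to food, and chromatin of 3 to 7 livers was combined for an immunoprecipitation. They were taken in the middle of the day (ZT06) or of the night (ZT18). Experiment JM08 (2 libraries at each time) and experiment JM12 (1 library at each time) used dual crosslinking, with 1.5 mM EGS, a crosslinker that joins proteins, and 1% formaldehyde. Experiment JM11 (1 library at each time) used 1% formaldehyde alone. The table of PETs names the experiment of each PET and neither its library nor its time point, so day and night are combined in every value below and each experiment is 1 pool.

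In the liver, carbohydrate is turned into fatty acid by a short chain of cytosolic enzymes. Citrate is cleaved to acetyl-CoA, acetyl-CoA is carboxylated to malonyl-CoA, and fatty acid synthase assembles these units into palmitate with reducing power from NADPH, after which elongases and desaturases lengthen and unsaturate the product. Transcription of the enzymes is driven by insulin through SREBP-1c, a product of Srebf1, and by glucose through ChREBP, the product of Mlxipl, and their transcription is known to rise after feeding. The antibody sees Pol II, hence a high density of PET ends is read as DNA that was near Pol II when it was crosslinked. Densities were not corrected by an input or control precipitation.

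The table held 474466 PETs on nuclear chromosomes in JM08, 1438852 in JM11 and 837971 in JM12, and 3712 of their ends lay over the 10 genes (1054, 1151 and 1507 in the same order). A relative density is the number of ends per kb over a gene and 2.5 kb either side, divided by the mean number per kb of the nuclear chromosomes in that experiment, which was 0.357 in JM08, 1.08 in JM11 and 0.630 in JM12. The interval beside a value is the exact Poisson 95% interval of its count. It covers counting error only, with no part for differences between livers or libraries, and it takes ends as independent although a PET with both ends over a gene gives 2. Positions are on GRCm38.

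Promoter sequences are shown for the 4 genes with the most PET ends at a start, including pairs of alternative starts of one gene that differed in PET ends. Each is the 250 bases before an annotated start, read in the direction of transcription, from RefSeq on GRCm38.p6. Capitals mark matches, on either strand, to the sterol response element TCACNCCAC, the E-box CACGTG, the NF-Y box CCAAT and the Sp1 box GGGCGG (a match on the other strand appears as its reverse complement).
Fasn, chr11:120824548-120824797, minus strand: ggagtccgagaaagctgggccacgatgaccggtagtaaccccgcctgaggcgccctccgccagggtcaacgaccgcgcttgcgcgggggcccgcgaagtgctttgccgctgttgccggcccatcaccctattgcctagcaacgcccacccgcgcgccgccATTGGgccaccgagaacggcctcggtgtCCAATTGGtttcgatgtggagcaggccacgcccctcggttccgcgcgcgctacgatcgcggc
Acly, chr11:100528001-100528250, minus strand: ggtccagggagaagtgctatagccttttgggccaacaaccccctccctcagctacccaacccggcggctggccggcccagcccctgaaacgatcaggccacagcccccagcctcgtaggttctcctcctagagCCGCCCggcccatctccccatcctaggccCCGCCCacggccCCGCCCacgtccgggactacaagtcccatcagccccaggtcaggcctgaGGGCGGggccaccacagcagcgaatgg
Mlxipl, first-listed start, chr5:135106641-135106890, plus strand: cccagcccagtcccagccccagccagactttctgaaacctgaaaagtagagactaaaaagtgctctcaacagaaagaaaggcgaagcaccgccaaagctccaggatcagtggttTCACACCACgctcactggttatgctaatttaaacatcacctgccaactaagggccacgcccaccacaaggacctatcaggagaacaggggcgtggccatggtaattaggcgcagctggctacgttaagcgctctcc
Mlxipl, second-listed start (upstream), chr5:135089640-135089889, plus strand: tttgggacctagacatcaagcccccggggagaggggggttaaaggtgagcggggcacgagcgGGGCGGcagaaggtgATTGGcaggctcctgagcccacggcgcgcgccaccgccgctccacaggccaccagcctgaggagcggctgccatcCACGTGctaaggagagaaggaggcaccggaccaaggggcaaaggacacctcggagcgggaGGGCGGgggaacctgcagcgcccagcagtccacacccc
Srebf1, first-listed start, chr11:60222582-60222831, minus strand: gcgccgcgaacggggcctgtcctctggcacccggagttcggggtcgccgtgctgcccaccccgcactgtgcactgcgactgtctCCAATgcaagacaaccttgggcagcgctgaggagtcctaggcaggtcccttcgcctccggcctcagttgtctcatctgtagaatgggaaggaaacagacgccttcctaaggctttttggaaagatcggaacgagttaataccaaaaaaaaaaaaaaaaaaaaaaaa
Srebf1, last-listed start, chr11:60210472-60210721, minus strand: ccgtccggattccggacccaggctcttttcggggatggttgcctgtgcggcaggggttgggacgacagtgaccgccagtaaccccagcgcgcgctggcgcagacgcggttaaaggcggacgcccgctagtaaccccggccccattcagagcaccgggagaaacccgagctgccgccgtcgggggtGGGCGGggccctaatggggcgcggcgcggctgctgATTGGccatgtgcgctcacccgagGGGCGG

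The window before the Fasn start held 3 NF-Y boxes, 59, 62 and 90 bases before the start, of which the first 2 overlap on opposite strands. Before the Acly start were 4 Sp1 boxes, from 27 to 117 bases away. The first-listed start of Mlxipl had the only match to the sterol response element TCACNCCAC among 13 annotated starts of 9 of the genes. The match lay 136 bases before the start. Of all 32851 promoters of the table, 1.24% had a match in the full window of 250 bases before and 50 after a start. Looser forms of the element were not searched. The second-listed start of Mlxipl had an E-box, an NF-Y box and 2 Sp1 boxes. An E-box was present at 2 of the 13 starts (Mlxipl and Elovl5) and in 7.15% of all promoters. NF-Y boxes were present at 8 of 13 starts and in 37.4% of promoters, Sp1 boxes at 5 of 13 and in 35.7%, and the TATA box TATAAA at 1 of 13 (Acacb) and in 13.6%. The DR4 element bound by the liver X receptors (AGGTCA repeated after 4 bases) and the paired E-boxes of a carbohydrate response element (CACGTG repeated after 5 bases), each searched letter by letter on both strands, matched none of the 13 and at most 0.0152% of promoters. Exact matches to these 2 elements were thus rare in any promoter. Their looser forms were not searched either, so a lack of matches does not show that such elements are absent. G and C made up 69.2% of the Fasn window and 39.2% of the Acaca window, at a median of 52.4% over all promoters, and CpG dinucleotides numbered 33 and 0 at a median of 6. A match is a description of letters, not a bound site.

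The suppliers of carbon and reducing power stood apart from each other. Acly (chr11:100476352-100528000), ATP citrate lyase, which makes cytosolic acetyl-CoA from citrate, had 96 ends in JM08, 96 in JM11 and 131 in JM12. These were relative densities of 4.75 (3.85 to 5.80), 1.57 (1.27 to 1.91) and 3.67 (3.07 to 4.36), above the mean in each experiment. The JM08 value differed between the linkers read in its PETs, at 2.42 (1.48 to 3.73) with linker ATGT and 6.37 (5.02 to 7.97) with TAAG. Me1 (chr9:86581363-86695914), the cytosolic malic enzyme, which yields NADPH, had 71, 130 and 133 ends, or 1.67 (1.30 to 2.10), 1.01 (0.840 to 1.19) and 1.77 (1.48 to 2.09). In JM11 its density was that of the nuclear chromosomes as a whole within its interval. The intervals of Acly and Me1 were apart in all 3 experiments, with Acly higher in each.

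Fasn (chr11:120805958-120825166), fatty acid synthase itself, had the highest point value of the 10 genes in each experiment. Its interval was apart from that of Scd1, the next, in JM11 alone, and with PETs between chromosomes only Scd1 was the higher in JM08 (16.6 against 13.2) and JM12 (9.65 against 9.32). Fasn had 204 ends in JM08, 114 in JM11 and 174 in JM12, relative densities of 23.6 (20.5 to 27.1), 4.35 (3.59 to 5.23) and 11.4 (9.78 to 13.2), and was above 99.5%, 99.5% and 99.8% of protein-coding genes. Of its 147 PETs in JM08, 57 had both ends over the gene. In JM11 it was at 8.17 (6.05 to 10.8) with linker ATGT and at 3.22 (2.49 to 4.10) with TAAG, above the mean with each. The carboxylases were in the lower part of the range. Acaca (chr11:84129635-84401651), which makes the malonyl-CoA used in synthesis, had 125, 315 and 258 ends over its 272 kb, or 1.27 (1.05 to 1.51), 1.05 (0.939 to 1.17) and 1.48 (1.30 to 1.67). Acacb (chr5:114146321-114250761), whose malonyl-CoA is made at mitochondria and restrains fatty acid oxidation, had 60, 101 and 144 ends, or 1.54 (1.17 to 1.98), 0.853 (0.695 to 1.04) and 2.09 (1.76 to 2.46). A gene-wide density averages a start with a long body, and Acaca is the longest and Scd1 the shortest of the 10, at 272 kb and 13.3 kb.

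Of the genes that modify palmitate, Scd1 was close to Fasn and the elongases were much lower. Scd1 (chr19:44394450-44407709), stearoyl-CoA desaturase, which makes the monounsaturated fatty acids of stored fat, had 137, 54 and 126 ends in JM08, JM11 and JM12, or 21.0 (17.7 to 24.9), 2.73 (2.05 to 3.57) and 11.0 (9.13 to 13.0). Its interval overlapped that of Fasn in JM08 and JM12 and lay below it in JM11. Elovl6 (chr3:129532386-129638495), which lengthens palmitate to stearate, had 94, 141 and 145 ends, or 2.37 (1.92 to 2.90), 1.17 (0.988 to 1.38) and 2.07 (1.75 to 2.44). Elovl5 (chr9:77917365-77984519), which lengthens polyunsaturated fatty acids, had 56, 77 and 145 ends, or 2.18 (1.64 to 2.83), 0.987 (0.779 to 1.23) and 3.19 (2.69 to 3.75). The elongases overlapped in JM08 and JM11, and Elovl5 was the higher of them in JM12, where their intervals were apart.

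Both transcription factor genes were enriched in the dual-crosslinked experiments. Srebf1 (chr11:60199084-60224186) had 107 ends in JM08, 63 in JM11 and 119 in JM12, or 9.97 (8.17 to 12.0), 1.94 (1.49 to 2.48) and 6.28 (5.20 to 7.51). Mlxipl (chr5:135089890-135139768) had 104, 60 and 132 ends, or 5.31 (4.34 to 6.44), 1.01 (0.772 to 1.30) and 3.82 (3.20 to 4.53). Srebf1 was above Mlxipl with intervals apart in every experiment, and Mlxipl, above 92.3% and 95.1% of protein-coding genes in JM08 and JM12, was above 33.6% of them in JM11.

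**Figure D1:**
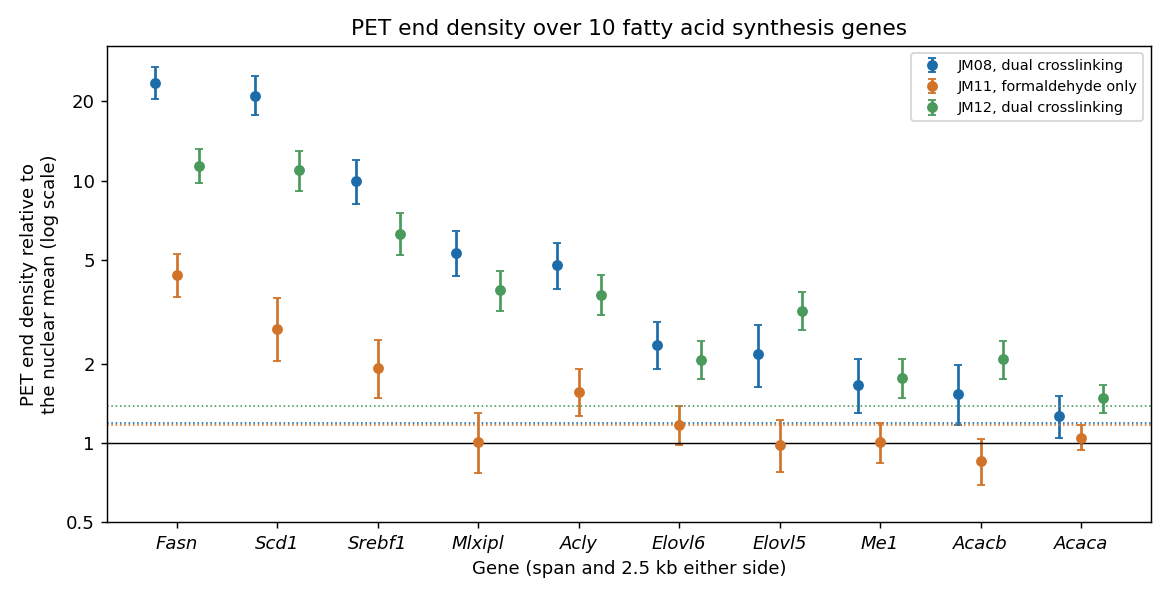
Relative density of PET ends (log scale) over each gene and 2.5 kb either side in the 3 experiments; points are counts divided by the nuclear mean, bars are exact Poisson 95% intervals, the solid line is the nuclear mean and the dotted lines are the medians of all protein-coding genes. Fasn and Scd1 lie highest in JM08 and JM12, at 11.0 to 23.6, and Acaca and Acacb are among the lowest.

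All 10 genes were above the nuclear mean in JM08, 4 in JM11 and 10 in JM12, counting a gene when the lower limit of its interval exceeded 1. The same held for 32.6%, 29.3% and 45.3% of protein-coding genes. This call depends on the number of ends, so a long gene passes at a lower density than a short one. Acaca, with 125 ends, passed in JM08 at 1.27, above 53.3% of protein-coding genes. In all 3 experiments 4 genes passed, namely Fasn, Scd1, Srebf1 and Acly, and 13.5% of protein-coding genes did. A density of 2-fold or more was reached by 7 genes in JM08, 2 in JM11 and 8 in JM12, against 27.0%, 6.03% and 24.1% of protein-coding genes. The median of the 10 genes was 3.56 in JM08, 1.11 in JM11 and 3.43 in JM12, beside medians over all protein-coding genes of 1.19, 1.17 and 1.39. With formaldehyde alone the group's median was thus no higher than that of genes in general.

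The order of the genes was nearly the same in the dual-crosslinked experiments. In JM08 and in JM12 the first 5 were Fasn, Scd1, Srebf1, Mlxipl and Acly. Neighbours in that order had overlapping intervals except for Scd1 over Srebf1 and Srebf1 over Mlxipl in both experiments, Acly over Elovl6 in JM08 and Elovl5 over Acacb in JM12. In JM11 only Fasn was separated from its neighbour, and the other 9 overlapped in a chain from Scd1 at 2.73 to Acacb at 0.853.

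PET ends were concentrated at the listed starts of some genes and not of others. The promoter table gives 13 starts for 9 of the genes, and Scd1 was treated by its boundaries. Within 500 bp of the start, Acly had 45 ends in JM08, 36 in JM11 and 28 in JM12, relative densities of 126, 33.3 and 44.4. Fasn had 39, 20 and 29, or 109, 18.5 and 46.0. With this window the intervals of the Acly and Fasn starts overlapped in each experiment, although over the whole gene Acly was far below Fasn (4.75 against 23.6 in JM08, and 3.67 against 11.4 in JM12). The overlap depended on the window. With 2 kb either side, Fasn was above Acly in JM08 with intervals apart, at 79.9 (65.9 to 96.0) against 40.7 (30.9 to 52.6). In JM11 and JM12 the intervals still overlapped.

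Elovl5 had 10, 3 and 22 ends within 500 bp of its start and Elovl6 had 8, 1 and 12. Me1 had 5, 2 and 5 at its first-listed start. At the annotated start of Acaca (position 84195438) there were 0, 0 and 2 ends, and at that of Acacb (114165518) 0, 1 and 1. Each of these starts lies inside its gene's span, which begins at 84129635 for Acaca and at 114146321 for Acacb. The counts of 0 in JM08 allow a relative density of up to 10.3 at the upper limit of the interval, so depth limits what can be said of these starts. Widening the window to 1 kb either side, 10 of 13 starts in JM08, 7 in JM11 and 11 in JM12 were at 2-fold or more, as were 52.4%, 37.4% and 56.5% of the starts of protein-coding genes. The median of the 13 starts was 15.4, 2.31 and 8.73, beside 2.80, 1.39 and 2.38 over all starts.

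Alternative starts of one gene differed in PET ends. Mlxipl has a first-listed start at position 135106891 and a second 17.0 kb upstream at 135089890. The first-listed start had 36 ends within 500 bp in JM08, 9 in JM11 and 22 in JM12, and the upstream start had 3, 1 and 3. Over all experiments the counts were 67 and 7, relative densities of 32.4 (25.1 to 41.1) and 3.38 (1.36 to 6.97), so the intervals were apart. The sequences above show that the densely covered start carries the sterol response element match and the sparsely covered one the E-box, NF-Y and Sp1 matches. ChREBP is known to have a main form and a shorter form made from a separate first exon, and the table does not pair its starts with forms.

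Srebf1 has 3 listed starts, at 60222581, 60220627 and 60210471, the last 12.1 kb downstream of the first. The last-listed start had 19 ends in JM08, 18 in JM11 and 14 in JM12. The first-listed had 9, 5 and 6, and the second-listed 10, 3 and 6. Over all experiments the relative densities were 24.6 (18.3 to 32.4) at the last-listed start, 9.66 (5.90 to 14.9) at the first-listed and 9.18 (5.53 to 14.3) at the second-listed. With the experiments combined, the last-listed start was therefore above both of the others with intervals apart, and the other 2 did not differ beyond theirs. Within each experiment the intervals of the last-listed and first-listed starts overlapped. Those of the last-listed and second-listed starts were apart in JM11 alone. The window of the last-listed start, shown above, holds 30 CpG dinucleotides, the first-listed one 16. Srebf1 is known to produce SREBP-1a and SREBP-1c from different first exons, with SREBP-1c the main form in liver. The table does not say which start belongs to which form, and 2 miRNA genes, Mir6921 and Mir6922, and part of Rai1 overlap the Srebf1 window. Me1 has a second-listed start 8.64 kb from the first, with 0, 1 and 0 ends.

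**Figure D2:**
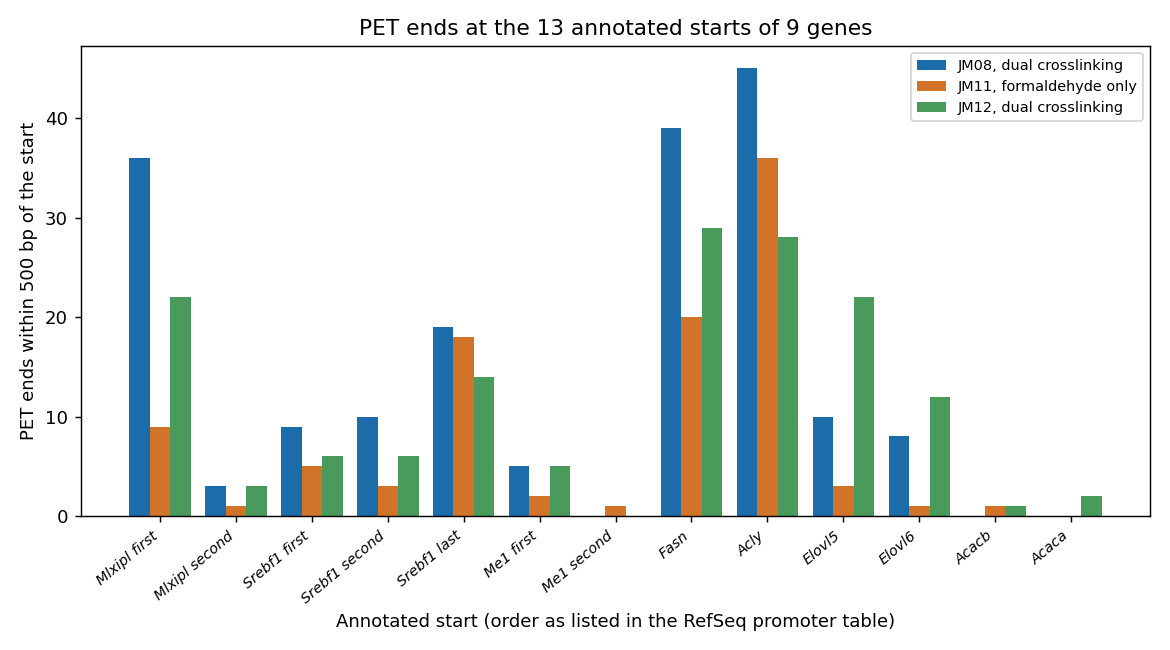
PET ends within 500 bp of each of the 13 annotated starts of 9 genes, by experiment; the word after a gene's name gives the place of the start in the RefSeq table. The Acly and Fasn starts, the first-listed Mlxipl start and the last-listed Srebf1 start have the most ends, and the Acaca and Acacb starts have at most 2 in any experiment.

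Along the gene, the density at the first-listed start (1 kb either side) was set against the density of the rest of the gene downstream. This ratio was 29.9 (19.6 to 45.8) in JM08, 27.0 (17.6 to 41.5) in JM11 and 8.70 (5.67 to 13.0) in JM12 for Acly, the highest of the 9 genes by point value, though in JM12 its interval overlapped that of Elovl5 almost wholly. The Acly ratio depended on the window: it was 50.0, 35.4 and 14.6 with 500 bp either side and 18.9, 16.4 and 5.18 with 2 kb, where Elovl5 stood at 5.32 in JM12. For Mlxipl it was 18, 5.46 and 5.69, and for Fasn 6.78, 7.69 and 3.94. Elovl5 had 8.27, 2.62 and 8.50, Elovl6 5.63, 1.21 and 4.92, and Me1 6.41, 1.43 and 3.15. Srebf1 had 2.44, 2.29 and 1.22, Acaca 1.58, 0 and 1.13, and Acacb 0, 0.507 and 1.07. The median of protein-coding genes over 5 kb with at least 20 ends was 6.06, 1.86 and 3.10, and 5, 5 and 6 of the 9 genes lay above it. The share of the genes above that median was thus near the one that a median gives. With 1 kb either side, the interval for Acly and for Mlxipl lay wholly above the gene median in all 3 experiments.

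The density of Fasn was highest in its first part in each experiment. In JM08 it was lower in the middle and raised again past the end. In the first of 5 equal parts of the gene it had 127, 72 and 77 ends in JM08, JM11 and JM12, and in the middle part 4, 4 and 15, relative densities of 2.92 (0.796 to 7.48), 0.963 (0.262 to 2.47) and 6.20 (3.47 to 10.2), which was above the mean in JM12 only. In the 2.5 kb past its end it had 18, 8 and 14 ends, or 20.2 (12.0 to 31.9), 2.96 (1.28 to 5.83) and 8.89 (4.86 to 14.9). That stretch was above the mean in every experiment. Its interval was apart from that of the middle part in JM08 and overlapped it in JM11 and JM12. Part of Ccdc57 lies in the Fasn window, on the side of the Fasn start. In JM12 the last of the 5 parts, at 4.96 (2.56 to 8.66), was below the middle part by point value. Past the end of Srebf1 there were 19, 2 and 13 ends, or 21.3 (12.8 to 33.3), 0.740 (0.0896 to 2.67) and 8.26 (4.40 to 14.1), and past Mlxipl 16, 1 and 6, or 17.9 (10.3 to 29.1), 0.370 (0.00937 to 2.06) and 3.81 (1.40 to 8.30). Both stretches were above the mean in JM08 and JM12 and not in JM11. As given above, part of Rai1 overlaps the Srebf1 window, so ends over Rai1 can be among those counted. Past Elovl5 there were 1, 7 and 8 ends. Over all experiments the relative density past Acly was 0.967 (0.314 to 2.26) and past Me1 0.774 (0.211 to 1.98), with the nuclear mean inside both intervals.

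Scd1 was densest at its upper boundary, and in JM08 and JM12 it was dense along its whole length. Within 1 kb of the upper boundary it had 42 ends in JM08, 19 in JM11 and 25 in JM12, and within 1 kb of the lower boundary 9, 8 and 18. Of 5 equal parts, numbered upward, the lowest value in JM08 was 10.6 (5.07 to 19.4) and in JM12 5.99 (2.87 to 11.0). In JM11 the third and the fourth part had 2 ends each, or 0.697 (0.0845 to 2.52), and the uppermost 23, or 8.02 (5.08 to 12.0).

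Acaca gave a narrow concentration of ends away from the annotated start. The densest 1 kb of the gene, chr11:84179135-84180134, held 45 ends (20 in JM08, 13 in JM11 and 12 in JM12), relative densities of 56.1 (34.3 to 86.6), 12.0 (6.40 to 20.6) and 19.1 (9.85 to 33.3). It lies within the Acaca span, 15.8 kb upstream of the start in the table and 50.0 kb from the lower boundary. The adjoining 1 kb held 19 ends, the highest of all other bins 9, and the median bin 2. No 100 bp of the gene held more than 12 ends. This kb was picked as the densest after the counts were seen, so it is described without a test. Acaca is known to be transcribed from several promoters, and the promoter table lists 1. Acacb had no such bin: its densest kb held 9 ends, a count that another of its bins also had. In Fasn, Acly, Srebf1 and Mlxipl the densest kb lay within 0.589 kb of a listed start and held 165, 78, 58 and 67 ends.

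**Figure D3:**
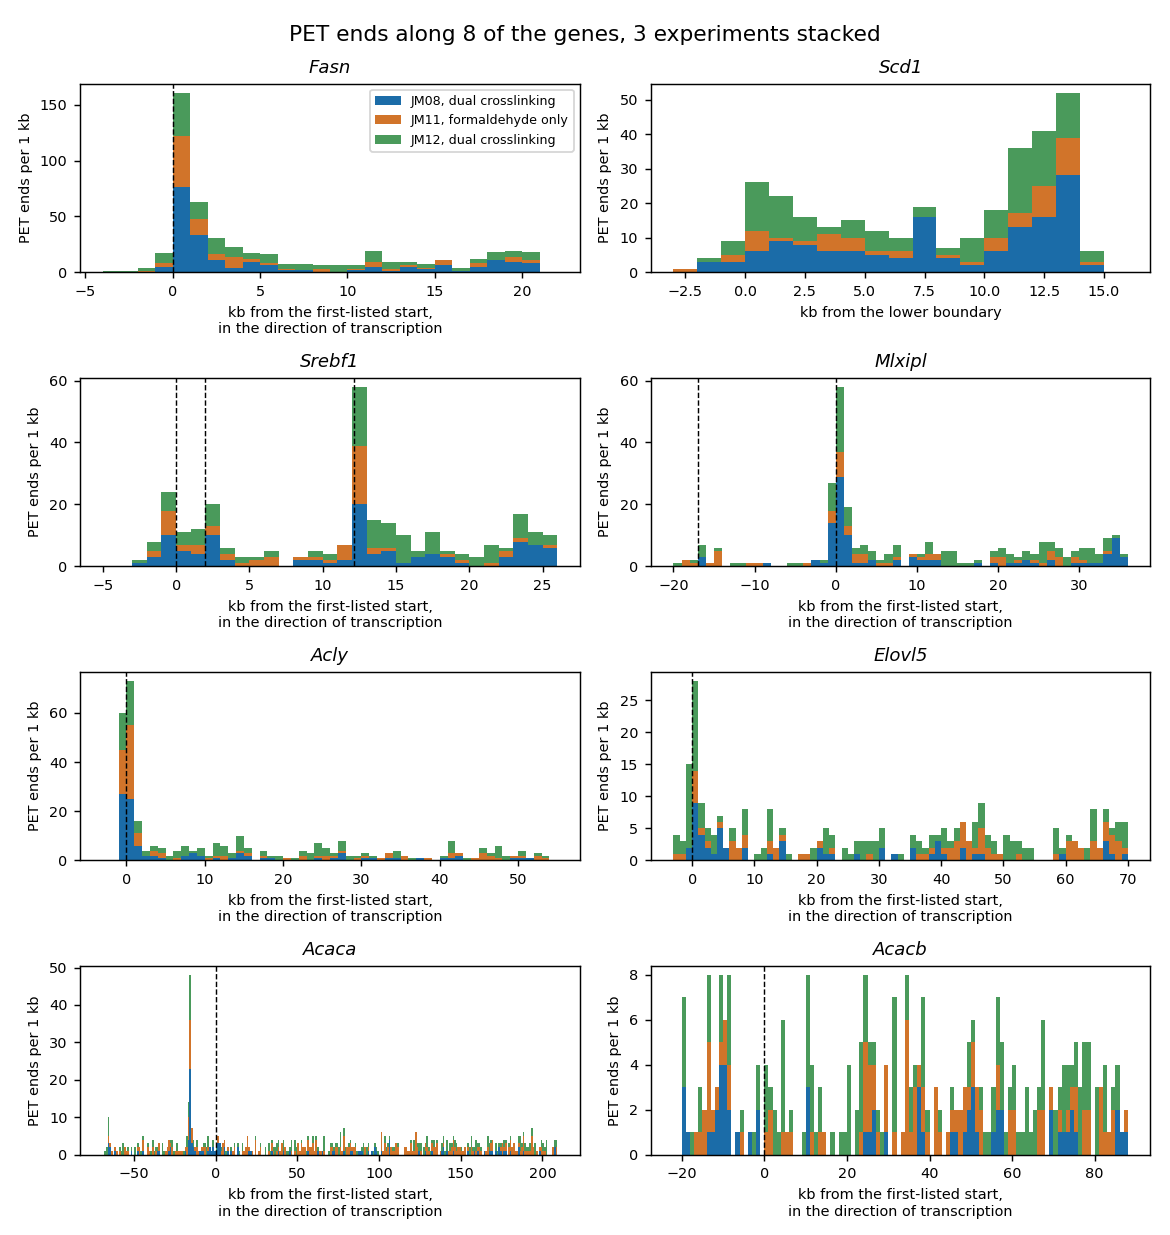
PET ends per 1 kb along 8 of the genes, with the 3 experiments stacked; distance runs in the direction of transcription from the first-listed start, or upward from the lower boundary for Scd1, and dashed lines mark listed starts. Ends peak at the starts of Fasn, Acly, Elovl5, Mlxipl (the first-listed) and Srebf1 (the last-listed), at 15.8 kb before the listed Acaca start, and at the upper end of Scd1, and Acacb has no bin above 8 ends. Bins begin at a start here and at the window's edge in the text, so that counts per bin differ slightly.

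By point value each of the 10 genes was denser in the dual-crosslinked experiments than with formaldehyde alone, by amounts that differed between genes. The ratio of relative densities, JM08 over JM11, was 7.69 (5.58 to 10.7) for Scd1, 5.43 (4.29 to 6.89) for Fasn, 5.26 (3.79 to 7.35) for Mlxipl and 5.15 (3.74 to 7.15) for Srebf1. It was 3.03 for Acly, 2.21 for Elovl5, 2.02 for Elovl6, 1.80 for Acacb and 1.66 for Me1, and for Acaca it was 1.20 (0.970 to 1.49), the only interval that included 1. Thus 9 of 10 genes had a lower limit over 1, as did 24.9% of protein-coding genes. The median was 2.62 over the 10 genes and 1.16 over protein-coding genes.

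For JM12 over JM11 the ratios ran from 4.01 (2.89 to 5.62) for Scd1, 3.78 for Mlxipl, 3.24 for Srebf1 and 3.23 for Elovl5 to 1.41 (1.19 to 1.66) for Acaca. All 10 lower limits exceeded 1, against 23.3% of protein-coding genes, and the medians were 2.53 and 1.25. The intervals are exact binomial 95% intervals of the 2 counts. Whether a lower limit exceeds 1 therefore depends on the number of ends as well as on the ratio. The comparison rests on 2 pools against 1 and JM11 is the denominator of both ratios. Crosslinking and experiment cannot be told apart here, and no test between conditions was possible.

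The dual-crosslinked pools also held a larger share of short PETs over these genes. PETs with ends at most 8 kb apart on one chromosome were 23.7% (20.9 to 26.7) of 852 PETs in JM08, 8.79% (7.15 to 10.7) of 1058 in JM11 and 13.3% (11.5 to 15.2) of 1331 in JM12, with exact binomial intervals. Over all protein-coding genes the shares were 20.4%, 5.12% and 11.9%. PETs joining different chromosomes were 72.3%, 87.3% and 80.9% of those over the 10 genes. Such PETs are commonly taken as ligation between unrelated complexes, and most of the ends counted above came from them. With these alone, each of the 20 ratios of a dual-crosslinked experiment to JM11 stayed within the interval given for it by all PETs.

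With all experiments combined, the 5 densest genes also had the largest shares of short PETs by point value. Over all experiments the share was 26.8% (22.5 to 31.5) for Fasn, 20.5% for Scd1, 19.9% for Srebf1, 18.3% for Acly and 17.0% for Mlxipl, 15.4% for Elovl5, and 10.1% for both Elovl6 and Acacb. It was 8.04% (6.06 to 10.4) for Acaca and 6.71% (4.20 to 10.1) for Me1. A short PET usually puts both ends over the gene and so adds 2 to its count, which ties these measures together. The same 5 genes had the largest shares in JM11, but not in the other experiments. In JM12 Elovl5 had the largest share, 18.9% (12.3 to 26.9), beside 16.0% (10.5 to 22.9) for Fasn. In JM08 Elovl5, at 24.4%, was above Mlxipl, at 19.5%, with overlapping intervals.

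Contacts beyond 8 kb on the same chromosome were few. There were 152 such PETs from the 10 genes (34 in JM08, 41 in JM11 and 77 in JM12), 4.69% (3.99 to 5.48) of 3241, against 5.07% over protein-coding genes. Their median span was 29.8 Mb, and 120 spanned more than 10 Mb. Only 18 reached up to 2 Mb and 5 up to 100 kb. The share up to 2 Mb among those over 8 kb was 11.8% (7.17 to 18.1) for the 10 genes and 6.65% (6.50 to 6.81) for protein-coding genes. Within experiments it was 11.8%, 4.88% and 15.6% in JM08, JM11 and JM12, beside 8.12%, 3.76% and 10.6%, each inside the interval of the 10 genes' share. No PET joined 2 of the 10 genes, although 4 of them are on chromosome 11.

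Fasn had 6 of the 18 PETs up to 2 Mb, and their far ends went to both sides. They reached Ccdc57, its neighbour, at 28.1 kb (JM12) and 102 kb (JM11), Rfng at 43.9 kb and P4hb at 232 kb (both JM08), and Nploc4 at 386 kb and Baiap2 and Aatk at 819 kb (both JM12). In 4 of the 6 the Fasn end lay within 2 kb of its start, 0.269 to 1.43 kb away. Of all 492 ends over Fasn, 245 lay within that distance, so 6 PETs are too few to set these apart. Among these PETs each far gene other than Ccdc57 was reached by 1 PET, and the 2 that reached Ccdc57 did so at separate positions.

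Scd1 had 3 PETs, at 8.41, 54.7 and 109 kb, all in JM12 and all with the far end at no protein-coding gene. The Srebf1 PET spanned 31.1 kb to Tom1l2 (JM12), with its near end 0.127 kb from the last-listed start. Acly reached an intergenic position at 175 kb (JM08), Zfp385c at 193 kb (JM11) and Aarsd1 at 886 kb (JM12), the last from 0.183 kb off its start. Me1 reached Ube2cbp and Dop1a at 229 kb (JM08), from 0.240 kb off its start. The remaining PETs were Acaca to Ccl9 at 615 kb and to Unc45b at 1.46 Mb, Acacb to Sppl3 at 791 kb and Elovl6 to Lef1 at 1.54 Mb, all in JM12. Elovl5 and Mlxipl had none. Over the 8 genes, 14 of 18 far ends lay at a protein-coding gene or within 2.5 kb of one. Of all 2751289 nuclear PETs, 2018979 had at least 1 end over a protein-coding gene. The share for far ends in general was not computed, so the count is not read as a preference for genes.

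**Figure D4:**
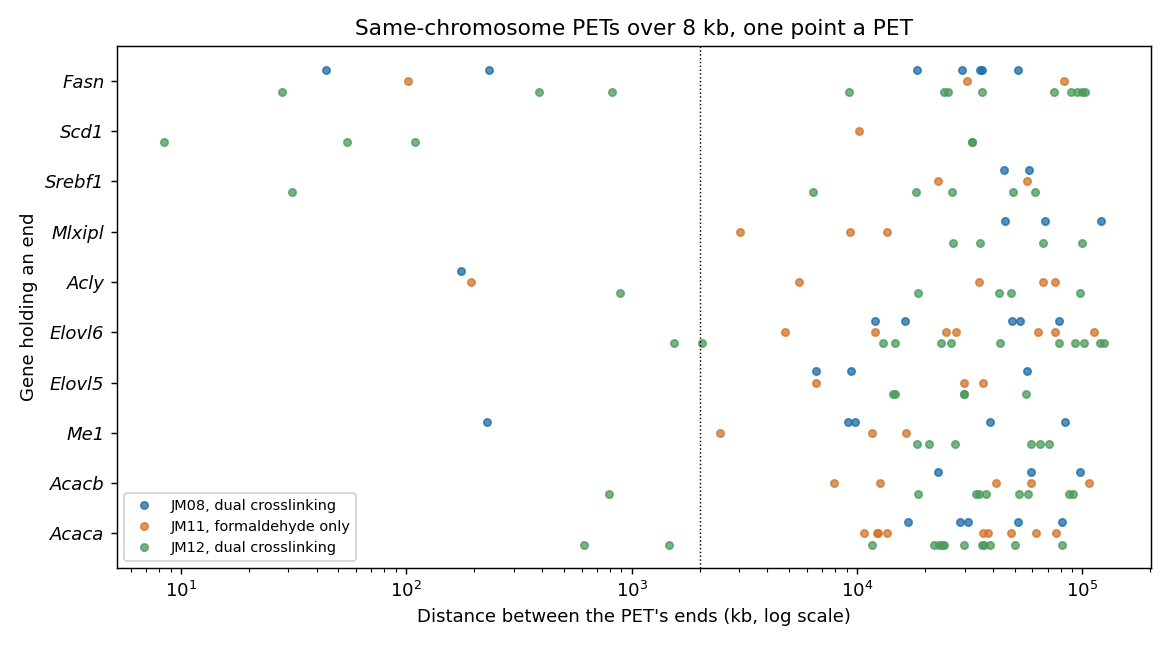
Distance between the ends of each same-chromosome PET over 8 kb with an end over a gene (log scale); each point is 1 PET, coloured by experiment, and the dotted line is at 2 Mb. Most points lie beyond 10 Mb, and Fasn has the most below 2 Mb, with 6.

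Other genes of lipid synthesis were also denser in the dual-crosslinked experiments by their median. Of 39 listed genes, all found, 34 were above the nuclear mean in JM08, 24 in JM11 and 38 in JM12, beside 32.6%, 29.3% and 45.3% of protein-coding genes. At 2-fold or more were 33, 9 and 31 of the 39, beside 27.0%, 6.03% and 24.1%. Their medians were 3.23, 1.43 and 2.49, each above the median of protein-coding genes (1.19, 1.17 and 1.39). The modulators of the carboxylase and the synthase (Mid1ip1, Thrsp and Mlycd) had the highest group medians, 11.8, 4.54 and 3.68, and the 8 genes of triacylglycerol assembly had 4.09, 1.44 and 3.09. The 9 other desaturases and elongases had medians of 3.23, 1.30 and 2.47.

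Among the highest of the 39 was Insig1, which holds SREBP precursors in the endoplasmic reticulum, at 34.8, 5.74 and 11.7. Thrsp, a lipogenic gene that responds to thyroid hormone, was at 34.7, 5.10 and 8.75, and Elovl3, an elongase of very long chain fatty acids, at 31.2, 9.36 and 10.6. These 3 were at or above Fasn in JM08 and JM11 by point value. The lowest were G6pdx (1.61, 0.720 and 1.24), Scap, the escort of SREBP (1.19, 0.767 and 1.88) and Pparg, a regulator of fat storage (1.13, 1.25 and 1.37).

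Fatty acid synthesis is also a programme of fat cells, so their markers were read beside these values. The 5 adipocyte genes Adipoq, Plin1, Lep, Cfd and Retn had medians of 0.683, 1.18 and 1.52. Of the 5, 1, 0 and 2 were above the nuclear mean, and none was at 0 in any experiment. Counts were low, at 1 to 9 ends per gene in JM08, where Plin1 was below the mean at 0.168 (0.00424 to 0.933). The 8 hepatocyte genes were Alb, Ttr, Apoa1, Apoa2, Apob, Serpina1c, Tat and Cps1. They had medians of 51.0, 7.60 and 12.0, with 8, 7 and 7 above the mean. Serpina1c was below the mean in JM11, at 0.492 (0.213 to 0.970). The shares of protein-coding genes above the mean, 32.6%, 29.3% and 45.3%, are the background of both counts. In bulk tissue, fewer cells of a type and less Pol II per cell cannot be told apart.

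The genes most like Acaca, the one of the 10 with the most ends (698), in relative density across the 3 experiments were Prkaa2, Fam13a and Pak2, at distances of 0.039, 0.041 and 0.046 on the log2 scale. The table also divides PETs by the linker read, ATGT or TAAG, and no source used here ties a linker to a library. In 28 of 30 combinations of gene and experiment the intervals of both linkers overlapped. The exceptions were Acly in JM08 and Fasn in JM11, given above.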

How the data were processed

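The deposited file lists PETs 1 to a line, with the experiment, the linkers, and the chromosome and position of both ends in base pairs. The submitters' processing notes name Bowtie2 and the build mm10 (GRCm38); no source used here gives a version, the filters or how duplicates were handled. PETs with a mitochondrial end were set aside, and ends were counted over RefSeq (GRCm38.p6) gene spans and listed starts with Python 3.11.15, numpy 2.4.6, pandas 2.3.3 and scipy 1.17.1. The nuclear mean used the span of positions on each nuclear chromosome, 2661305310 bp in all. Counting and collapsing were tested on simulated ends. Pools of libraries are not replicates, so no test was run and day was not compared with night. The genes, the lists and the named-gene rule (all 10 genes, the 3 highest and 3 lowest other lipid genes, the 3 genes most like that with the most ends, and far ends up to 2 Mb) were chosen with earlier results of these data known. Where a gene's window overlaps a neighbour, the neighbour's ends are included. A start ratio is of the first-listed start. Alternatives were other flanks, PET classes, near-duplicates removed, another reference level, each linker alone, other windows and distances, and experiments left out.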

Additional observations from a re-analysis of the deposited data

How the results depend on the processing

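Of 411 alternative values for 99 results, 321 stayed within the interval of the reported value or within 1.5 times its count, 90 moved. Of the genes above the nuclear mean, 10 in JM08 became 9 with PETs at most 8 kb apart, with PETs between chromosomes and with either linker, and 8 relative to the median gene, and 10 in JM12 became 8 with PETs at most 8 kb apart and 9 relative to the median gene. In JM11 the 4 became 3 to 5. No value of a gene so counted fell below 1. With PETs at most 8 kb apart alone, the median relative density of the 10 genes was 5.75 in JM08, 2.69 in JM11 and 7.04 in JM12, and 5 genes instead of 2 reached 2-fold in JM11. With PETs between chromosomes alone, the median was 2.83 in JM12 and 1 gene reached 2-fold in JM11, as with 10 kb either side. Relative to the median protein-coding gene, the medians were 0.952 in JM11, below 1, and 2.48 in JM12. With linker ATGT alone the JM08 median was 2.62. The median over all experiments combined was 2.24, and 1.92 without JM08, 3.44 without JM11 and 1.77 without JM12. Scd1 was also above Fasn in JM12 with the gene span alone (13.4 against 12.5) and with linker ATGT (11.9 against 11.4). Start ratios moved out of their intervals 7 times with 500 bp and 4 times with 2 kb either side. The causes were not tested. Removing near-duplicates (1.93% of PETs in JM08) moved none of the 30 gene densities out of their intervals. Counting each PET once per gene, chosen after the values were seen, put 8, 4 and 10 genes above the nuclear mean in JM08, JM11 and JM12, with medians of 2.94, 1.06 and 2.91. No paired analysis was possible because no PET is tied to a library. Depth limits starts and contacts most, where counts are often under 10.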
